A study of Rattus norvegicus with 9 samples.

Results

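The 3 libraries described here hold the RNA of cultured horizontal basal cells that received vehicle and not the phorbol ester PMA. They were chosen by their sample titles as the vehicle-treated libraries and make up 3 of the 9 libraries of the series. The cells came from the olfactory epithelium of SD rats, were grown as primary cultures to passage 7, received 0.1% DMSO as the vehicle and are labelled as time 0. All cultures of the series were kept in Primocin and an antibiotic and antimycotic mix. The other 6 libraries, from cells given PMA, enter no value below. Age and sex are not given, and nothing in the labels says whether the 3 libraries came from separate animals, dissociations or dishes, so their spread may be technical. With 1 group there is no contrast to test, and no p-value is given.

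Horizontal basal cells form a dormant stem cell pool of the olfactory lining. They lie flat on the basement membrane, fastened to it by hemidesmosomes, carry keratin 5 and keratin 14 filaments, and are kept quiescent in the intact tissue by the transcription factor Tp63. After injury they divide and can replace the neurons and supporting cells of the epithelium. The cells in culture are taken away from those neighbours and grow on a dish, which limits them as a model of the resting tissue.

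Between 14626173 and 18118499 reads per library fell in annotated genes, 70.2% to 71.3% of all reads. Levels are CPM, counts scaled to a total of 1000000 gene reads. They are the share of a library's reads that a gene takes, which rises with transcript length, so an order between genes is an order of reads and not of molecules. A gene is called detected at 1 CPM or more in all 3 libraries, which holds for 9391 of 17315 genes (54.2%), and 5190 genes had no read in any library. A count of 0 in all 3 libraries allows a level of up to 0.0595 CPM, from 3 counts over the summed totals, for counting error only. Across genes the edgeR estimate of the coefficient of variation between the libraries was 12.0%.

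Among the markers that define the cell type, Krt5 and Krt14 took a large share of the reads in all 3 libraries. Tp63 and Icam1 took far smaller shares. Krt5, the type II basal keratin, was at 7715, 9723 and 9067 CPM in replicates 1, 2 and 3, a mean of 8835 ± 1024 (SD, n = 3). Its type I partner Krt14 was at 7095, 7137 and 6451 CPM (6895 ± 384). Tp63 was at 325, 265 and 260 CPM (284 ± 36.2), and Icam1, an adhesion molecule and surface marker of these cells, at 188, 198 and 168 CPM (185 ± 15.3). All 4 lie above the detection limit in each library, so the labelled cell type had its defining markers. Replicate 2 had the most Krt5 and replicate 1 the most Tp63, and none of the 4 differed 2-fold between any 2 libraries. Other genes of basal cells stood beside them. Of the 23 further basal identity genes in the files 21 were detected, against 54.2% of all genes. They include Krt17, Itgb4, Cd44, Itga6, Perp, Trim29 and Dsc3.

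Markers of the other cells of the nose were mostly near 0. Of 18 genes of the neuronal lineage 3 were detected, led by Adcy3, an adenylyl cyclase of olfactory cilia that other cells also make, at 267, 258 and 221 CPM. Tubb3, a tubulin of young neurons, was at 6.47, 8.90 and 8.88 CPM. None of the 1185 olfactory receptor genes in the files was detected, and 1178 of them had no read at all. The olfactory receptors summed to 0.900, 0.334 and 0.478 CPM. Genes of sustentacular cells and Bowman's glands were detected in 5 of 13 cases: Krt8, Cd24 (58.4 ± 7.16 CPM), the water channel Aqp3 (43.7 ± 2.96), Sox9 (23.3 ± 1.59) and Krt18 (8.39 ± 1.17). Cyp2g1, Cyp1a2 and Ermn, which sustentacular cells are known for, had no read. Tubb4b, a tubulin of cilia and of dividing cells, was the gene with the most reads in the ciliated and microvillar list, at 902, 1030 and 1202 CPM, while Foxj1, the master regulator of motile cilia, was at 0.0556 CPM.

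Genes of cells outside the epithelium were at or near 0 as well. The 13 fibroblast and pericyte genes summed to 8.66, 7.51 and 6.28 CPM, with Col1a1 at 4.14 ± 1.61 CPM and the fibroblast filament gene Vim at 0.589 ± 0.172. The 11 immune genes summed to 39.0, 36.0 and 37.5 CPM, nearly all of it the lysosomal protein Cd68 (25.3 ± 1.97) and the endotoxin receptor Cd14 (10.1 ± 0.821), and Ptprc, carried by all white blood cells, had no read. None of the 13 endothelial and glial genes was detected, and together they summed to between 0.683 and 1.52 CPM. At a mean of 5 CPM or more, the level from which libraries are compared below, stood 5 sustentacular and gland, 2 neuronal, 2 immune and 1 ciliated gene, and none of these differed 2-fold between the libraries. The fibroblast and endothelial lists had 0 genes at that level and were not compared.

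**Figure D1:**
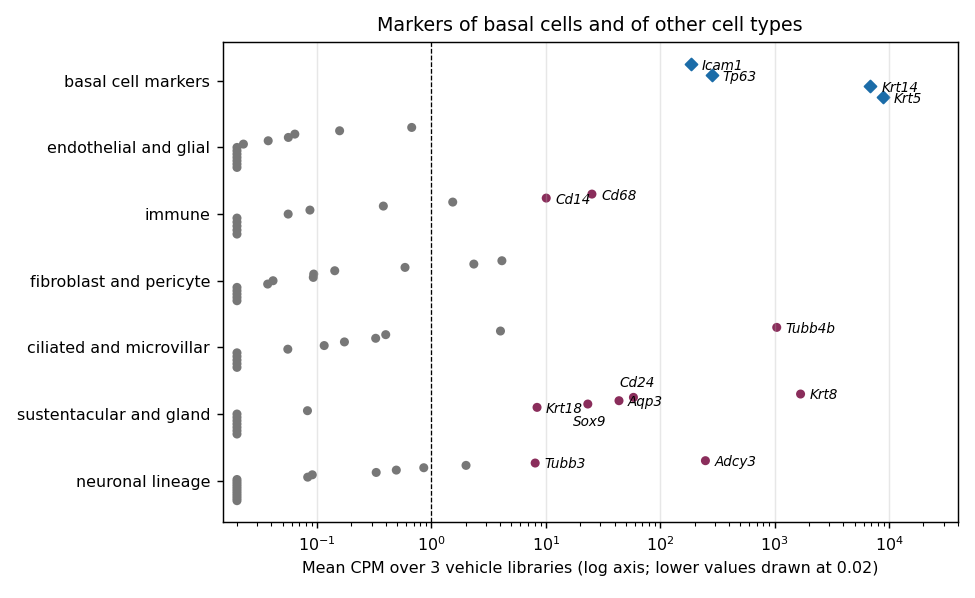
Mean CPM over the 3 vehicle libraries (log axis, lower values drawn at 0.02) of basal cell markers and of 6 lists of markers of other cell types, 1 point per gene, with the dashed line at 1 CPM. The basal markers lie between 184.5 and 8835 CPM, and most points of the other lists lie left of the line, with Krt8, Tubb4b and Adcy3 as the highest of them.

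The reads went first to translation, keratin filaments, glycolysis and the actin cytoskeleton. Eef1a1, which brings aminoacyl-tRNA to the ribosome, took the most, 9384, 9392 and 9470 CPM, which is 0.942% of the reads. Krt5, Krt17 and Krt14 came next. Then followed Actg1 (5664 ± 306 CPM), Pkm (5354 ± 143), Actb (5183 ± 121), Ftl1 (5161 ± 1814), Ldha (4865 ± 403), Eef2 (4760 ± 144) and Gapdh (4553 ± 39.9). The 10 genes with the most reads held 6.45% of them, the first 25 held 11.4% and the first 500 held 46.1%. Reads of Eef1a1, Gapdh, Ftl1, the actins and ribosomal protein genes can be shared with near-identical copies and pseudogenes, so their values are uncertain by the share that mapped to several places.

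Further down the first 25 stood 3 annexins, calcium-dependent membrane-binding proteins: Anxa1 (3862 ± 195 CPM), Anxa8 (3737 ± 400) and Anxa2 (3479 ± 167). The chaperones Hsp90ab1 (4019 ± 264) and Hspa8 (3417 ± 152) were there too, with the glycolytic enzyme Eno1 (3045 ± 129), the glucose transporter Slc2a1 (2748 ± 211), the hemidesmosomal integrin subunit Itgb4 (2696 ± 399) and the cell surface protein Msln (2593 ± 144). By class, cytosolic ribosomal proteins took 6.97% of the reads, translation factors 3.32%, keratins 2.60%, heat shock proteins and the chaperonin 2.03%, actins, tubulins and thymosins 1.97%, and respiratory chain subunits 0.924%. All 20 glycolysis and hypoxia genes in the files were detected, beside 54.2% of all genes. Ndrg1 (2494 ± 222 CPM), a hypoxia-induced gene, and Aldoa (2394 ± 235) were among those with the most reads. All but 1 of the 21 cholesterol synthesis genes were detected, led by Hmgcs1 (820 ± 105), the synthase at the head of the pathway. The cell cycle regulators Ccng1 (1024 ± 28.6), Mdm2 (665 ± 37.2) and Cdkn1a (615 ± 59.4) led the list of cell cycle arrest genes, of which all 14 were detected. Nothing is read from the detected counts of these chosen lists.

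Keratins were few in kind. Of 45 keratin genes in the files 17 were detected and 13 had no read, against 54.2% detected among all genes. Krt17, a type I keratin of basal layers and wounds, was at 8773, 8585 and 7608 CPM. Its values overlap those of Krt5 and lie wholly above those of Krt14. The 27 type I genes summed to 15389 ± 999 CPM and the 18 type II genes to 10659 ± 1020. Type I and type II keratins pair in filaments, and the pair of simple epithelia was uneven in reads: Krt8 was at 1747, 1798 and 1519 CPM, while its usual partner Krt18 was at 7.09, 8.74 and 9.36 CPM and Krt19 at 15.3 ± 3.47 on average. These are read shares, with no correction for transcript length or for reads that map to several places.

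Keratins of other epithelia made up the rest. Krt80 was at 71.1 ± 11.9 CPM, Krt75 of the hair follicle at 37.2 ± 7.33, Krt15, another basal layer keratin, at 78.5 ± 9.0, and Krt16, a wound keratin, at 34.2 ± 5.25. Krt13, of mucosal squamous epithelium, was at 20.9, 24.1 and 40.02 CPM, highest in replicate 3. Krt84 (15.3 ± 2.60), Krt82 (4.77 ± 1.27), Krt4 (3.36 ± 0.213), Krt20 (2.40 ± 0.577), Krt71 (2.22 ± 0.591) and Krt42 (1.89 ± 0.767) were low but detected. Krt10 of suprabasal epidermis was at 1.57, 0.946 and 0.888 CPM and missed the limit in 2 libraries. No keratin of the 12 with a mean of 5 CPM or more differed 2-fold between libraries.

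**Figure D2:**
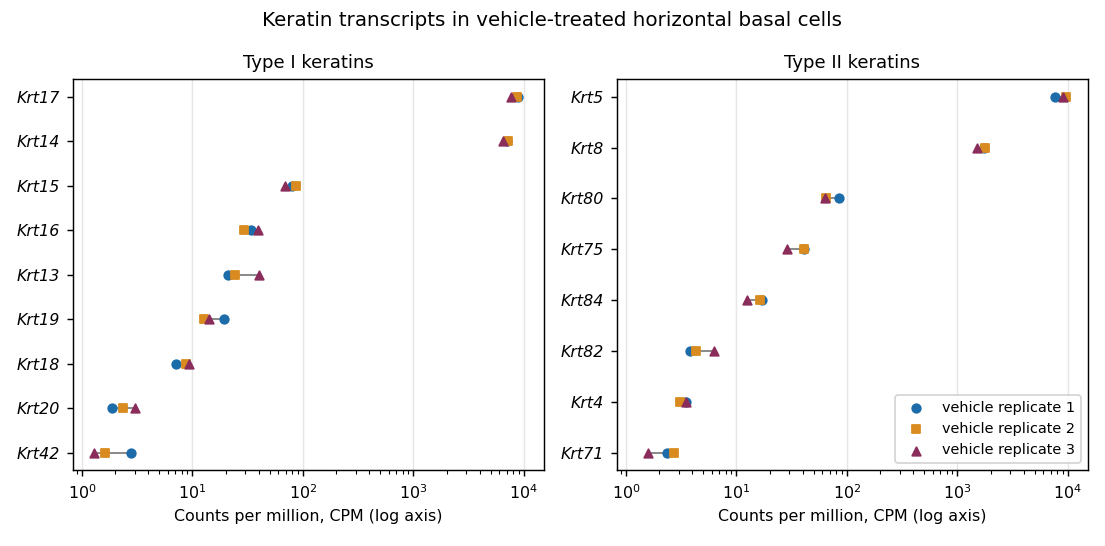
CPM (log axis) of each detected keratin in the 3 vehicle libraries, 1 symbol per library, ordered by mean within type I and type II. Krt5, Krt17 and Krt14 lie furthest right, each above 6451 CPM or at it, Krt8 between 1519 and 1798, and all others below 100.

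Integrins and matrix receptors took the most reads among surface proteins. Of 295 receptor and surface genes in the files, 165 (55.9%) were detected, near the 54.2% of all genes, and 60 had no read. Itgb4 was at 2237, 2882 and 2968 CPM, its partner Itga6 at 1687, 1768 and 1662, and Itgb1 at 1365, 1523 and 1570, and these 3 took most integrin reads. The next integrins, Itgb5 (149 ± 7.99), Itga5 (64.5 ± 2.83), Itgb7 (54.4 ± 16.8) and Itgb6 (50.8 ± 4.58), were each far lower in reads. The proteoglycan Sdc1 (2458 ± 131), the hyaluronan receptor Cd44 (2350 ± 149), Bsg (1225 ± 53.1) and the semaphorin receptor Plxnb2 (992 ± 50.7) led the other adhesion proteins, of which 44 of 54 were detected. Among cadherins, Cdh1 was at 1574, 1312 and 1171 CPM and Cdh3 at 478, 537 and 570.

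Several growth factor receptor families were each led by 1 member. The ephrin receptor Epha2 was at 945, 1043 and 1020 CPM and the next in its family, Epha1, at 87.6 ± 7.07. Notch1 was at 667, 774 and 692 CPM, Notch2 at 91.5 ± 5.73 and Notch3 at 68.5 ± 1.71. Fgfr2 was at 120 ± 6.02 CPM and Fgfr3 at 17.9 ± 1.45, while Fgfr4 had no read. In the EGF receptor family Erbb2 (65.2 ± 5.92) and Egfr (58.9 ± 2.07) overlapped in their values, Erbb3 was at 10.5 ± 1.79 and Erbb4 had no read. Ptk7 (235 ± 11.1), Axl (234 ± 28.8), Ryk (160 ± 3.56) and the hepatocyte growth factor receptor Met (144 ± 15.9) led the other tyrosine kinases, of which 10 of 32 were detected. Tgfbr2 (191 ± 6.86) led the TGF-beta and BMP receptors, and Fzd6 (171 ± 11) with the co-receptor Lrp5 (145 ± 7.19) the Wnt receptors.

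Receptors of immune signals were present as well. Tnfrsf12a, the TWEAK receptor, was at 245, 282 and 294 CPM, followed by Ltbr (100 ± 5.46) and Tnfrsf1a (89.0 ± 6.59). Il4r (130 ± 15.5) and Il6st (128 ± 3.90) led the interleukin and interferon receptors, of which 23 of 37 were detected. Of 68 G protein-coupled receptors 23 were detected, led by Gprc5a (282 ± 28.3), the nucleotide receptor P2ry2 (140 ± 1.20) and the protease-activated receptors F2r (115 ± 5.49) and F2rl1 (91.4 ± 5.43).

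Ligands of several of these receptors were made by the same cultures. In the EGF family, 6 of 10 were detected: Nrg1 (464 ± 52.4 CPM), Hbegf (301 ± 9.56), Tgfa (227 ± 20.6) and Areg (104 ± 6.39), with less Epgn and Ereg. The Notch ligand Jag1 was at 341 ± 30.3 CPM, the activin subunit Inhbb at 283 ± 20.1, Wnt4 at 250 ± 40.9 and Bmp7 at 162 ± 15.5. The FGF-binding protein Fgfbp1 (1971 ± 113), the galectin Lgals3 (540 ± 85.0) and Vegfa (478 ± 7.04) led the remaining secreted factors that are not annexins.

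Of 461 transcription factor genes in 24 families, chosen by name, none had a higher mean than Hif1a, at 486 CPM. Factors outside these families were not ranked. Of the 461, 243 (52.7%) were detected, near the 54.2% of all genes, and 121 had no read. Hif1a, of the hypoxia response, was at 500, 480 and 479 CPM. Atf4, of the amino acid and stress response, was at 371, 483 and 562 CPM, lowest in replicate 1. Next came Junb (390 ± 35.3), the oxidative stress factor Nfe2l2 (371 ± 41.2), Elk3 (360 ± 37.0), the AP-1 subunit Fosl1 (303 ± 36.0), Tp63, the sterol regulator Srebf2 (277 ± 14.2), Klf6 (274 ± 21.7), the E2F partner Tfdp1 (257 ± 43.4), Myc (233 ± 12.6) and Ets1 (219 ± 11.4).

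Families differed in how many members were detected, beside 54.2% of all genes, and nothing is read from the shares of small families. Of the Irf and Stat genes 15 of 17 were detected, and of the Hox genes 0 of 25, 24 of them without a read. All 9 E2f and Myb genes and 16 of 23 Ets genes were detected, against 7 of 15 Sox genes and 30 of 98 other homeobox genes. Among epithelial regulators, Klf5 was at 157 ± 9.74 CPM, Hopx at 121 ± 11.3, Klf4 at 97.7 ± 8.73, Grhl2 at 74.9 ± 2.42 and Tfap2c at 74.6 ± 2.18. Of the mesenchymal factors Snai2 was at 46.0 ± 2.02 CPM, Zeb1 at 1.22 ± 0.772, and Zeb2 and Snai3 had no read. Sox7 (76.9 ± 4.6) and Sox4 (60.7 ± 3.86) led the Sox genes.

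**Figure D3:**
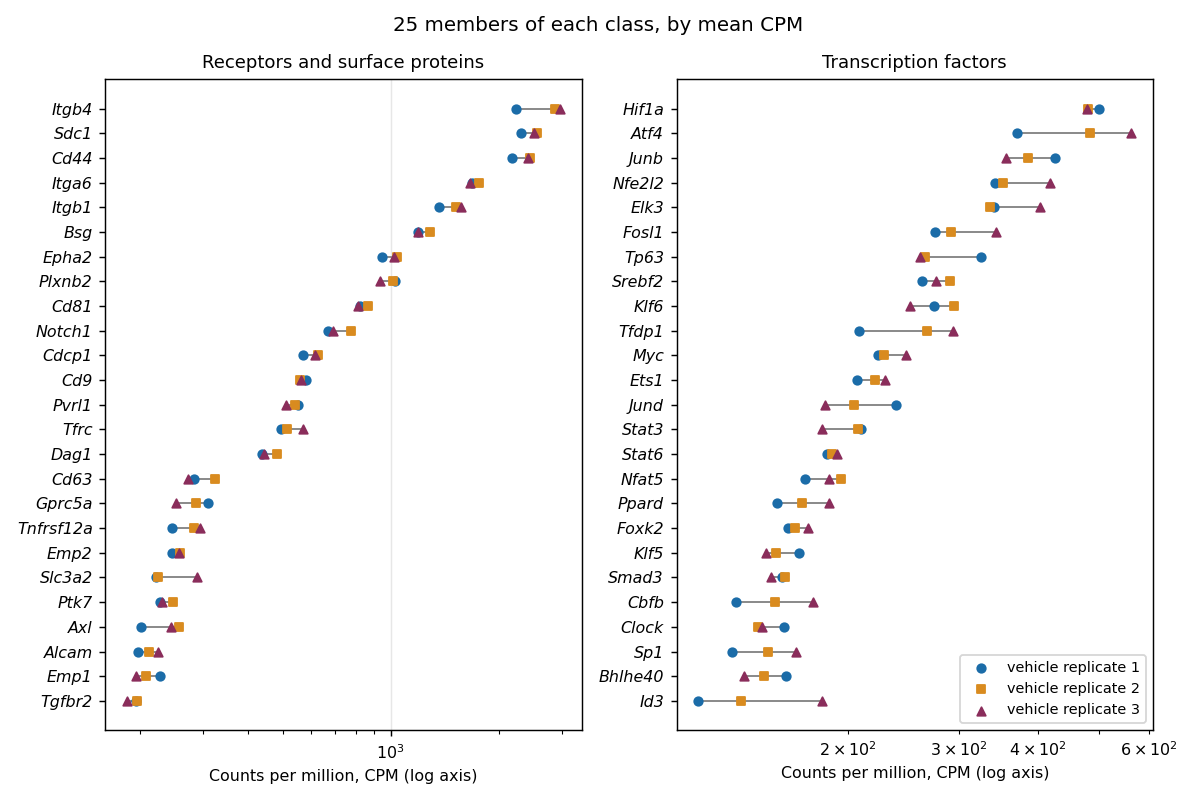
CPM (log axis) in each of the 3 vehicle libraries of 25 receptor and surface genes and 25 transcription factors, those with the most reads among the genes reported here, 1 symbol per library. The receptors range from Itgb4 down to Tgfbr2, and among the transcription factors drawn the widest relative gaps are those of Id3, from 116 to 182 CPM, and Atf4, from 371 to 562 CPM.

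Although they carry 1 label, the 3 libraries were not equal. Of 8539 genes with a mean of 5 CPM or more, 192 (2.25%) had at least 2-fold more in the highest than in the lowest library, after adding 0.5 CPM to each value. There were 21 genes at 4-fold or more. Replicate 3 was highest and replicate 1 lowest for 168 of the 192 (87.5%), an order that 24.9% of all 8539 genes had, and 16 had the opposite order. Replicate 3 had 170 genes (1.99%) 2-fold higher and 16 (0.187%) lower than replicate 1. Replicate 2 had 47 (0.55%) higher and 6 (0.0703%) lower than replicate 1, and replicate 3 had 16 (0.187%) higher and 4 (0.0468%) lower than replicate 2. Leaving out replicate 1 left 21 differing genes, and leaving out replicate 3 left 49. The exact 95% counting interval of the ratio lay above 1 for all 192 and above 2 for 129. The intervals were computed only for these 192 genes, between the libraries picked as highest and lowest. A bound above 1 was therefore largely set by that choice, and the intervals cover counting error only. Each library is 1 sample, so the 192 are differences between libraries with no test behind them.

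The libraries also differed a little in depth and mapping. Replicate 3 was the shallowest library, with 14626173 gene reads against 17659221 in replicate 1 and 18118499 in replicate 2. Reads that did not map made up 6.26% in replicate 1 and 5.18% and 5.17% in replicates 2 and 3. The share of reads in genes was 70.2%, 70.6% and 71.3%. The part of depth and mapping in the differences was not tested. Of the lists of other cell types, the ciliated and microvillar list had its largest sum in replicate 3 and its smallest in replicate 1, nearly all of it Tubb4b, and the other 5 did not have that order. Over all 8539 genes the median log2 ratio of replicate 3 to replicate 1 was -0.00. The scaling of the libraries largely sets this median, so it does not bear on depth or mapping. None of 80 ribosomal protein genes differed 2-fold, beside 2.25% of all genes. Their median log2 ratio of replicate 3 to replicate 1 was -0.11, and 5 of the 80 were higher in replicate 3. Replicate 1 was highest and replicate 3 lowest for 44 of the 80, an order that 23.6% of all 8539 genes had.

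**Figure D4:**
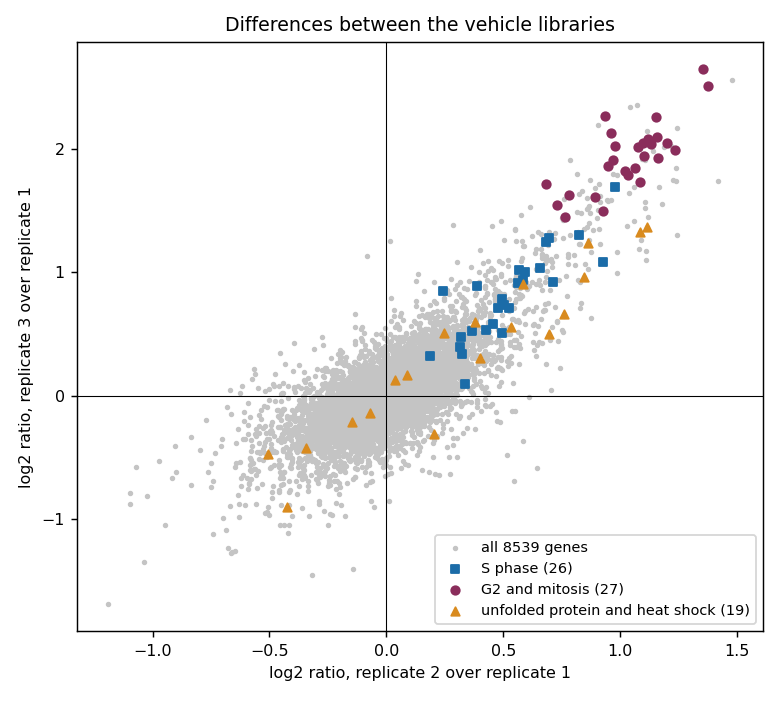
Log2 ratio of replicate 2 to replicate 1 (horizontal axis) against that of replicate 3 to replicate 1 (vertical axis) for the 8539 genes, with the 27 G2 and mitosis, 26 S phase and 19 unfolded protein and heat shock genes marked. Both axes share replicate 1 as the denominator, so a slope between them is built in, and the G2 and mitosis genes lie at the upper right end.

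Genes of the late cell cycle differed most. All 27 G2 and mitosis genes with a mean of 5 CPM or more were among the 192, and all 27 were highest in replicate 3 and lowest in replicate 1. This list and those below were chosen with earlier results of these data known, so such counts are no independent support. Summed over the list, the 27 genes were at 779, 1599 and 2962 CPM. Top2a, which untangles chromosomes before division, was at 88.8, 199 and 381 CPM. Mki67, the standard marker of cycling cells, was at 72.0, 155 and 279. Cdk1, the mitotic kinase, was at 46.8, 87.3 and 144. Replicate 2 lay between the other two for each of these 3 genes. Cenpf, a kinetochore protein, had the largest ratio of all 8539 genes, with 11.4, 29.8 and 73.9 CPM from 202, 536 and 1082 reads, a 6.51-fold difference with a counting interval of 5.59 to 7.60. Nusap1, a spindle protein, was at 8.83, 23.7 and 52.8 CPM and Ccnb1, the mitotic cyclin, at 18.3, 41.2 and 89.5.

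The median log2 ratio of the 27 genes was 1.06 for replicate 2 to 1, 1.95 for replicate 3 to 1 and 0.91 for replicate 3 to 2, where the medians of all genes were -0.00, -0.00 and 0.01. Between replicates 2 and 1, 16 of the 27 passed 2-fold, and between replicates 3 and 2, 7 did, so the number passing falls where either end library is left out. Of the transcription factors that differed 2-fold, Foxm1, an activator of mitotic genes, was at 11.1, 25.9 and 46.3 CPM. Mybl2, which acts with it, was at 93.8, 138 and 184 and stayed under 2-fold. In bulk RNA, more cycling cells and more of these transcripts per cell cannot be told apart.

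S phase genes had the same order with smaller differences. Of 26 genes, 8 differed 2-fold, all 26 were higher in replicate 3 than in replicate 1, and 25 had replicate 3 highest and replicate 1 lowest. Their sum was 2159, 3170 and 3921 CPM. Rrm2, the regulated subunit of ribonucleotide reductase, was at 220, 389 and 545 CPM and Rrm1 at 155, 251 and 375. Tk1, thymidine kinase, was at 44.1, 87.4 and 143. Pcna, the sliding clamp, was at 176, 249 and 304 and did not reach 2-fold. The list's median log2 ratios were 0.50, 0.81 and 0.23 for replicate 2 to 1, 3 to 1 and 3 to 2. None of the 26 passed 2-fold between replicates 1 and 2 or between replicates 2 and 3. Of the CDK inhibitor and arrest genes 0 of 13 differed 2-fold, beside 2.25% of all genes, and nothing is read from that count. Of the 13, 11 were higher in replicate 3 than in replicate 1, beside 4268 of all 8539 genes. Their median log2 ratio of replicate 3 to replicate 1 was 0.14, and Cdkn1a was at 550, 628 and 667 CPM.

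**Figure D5:**
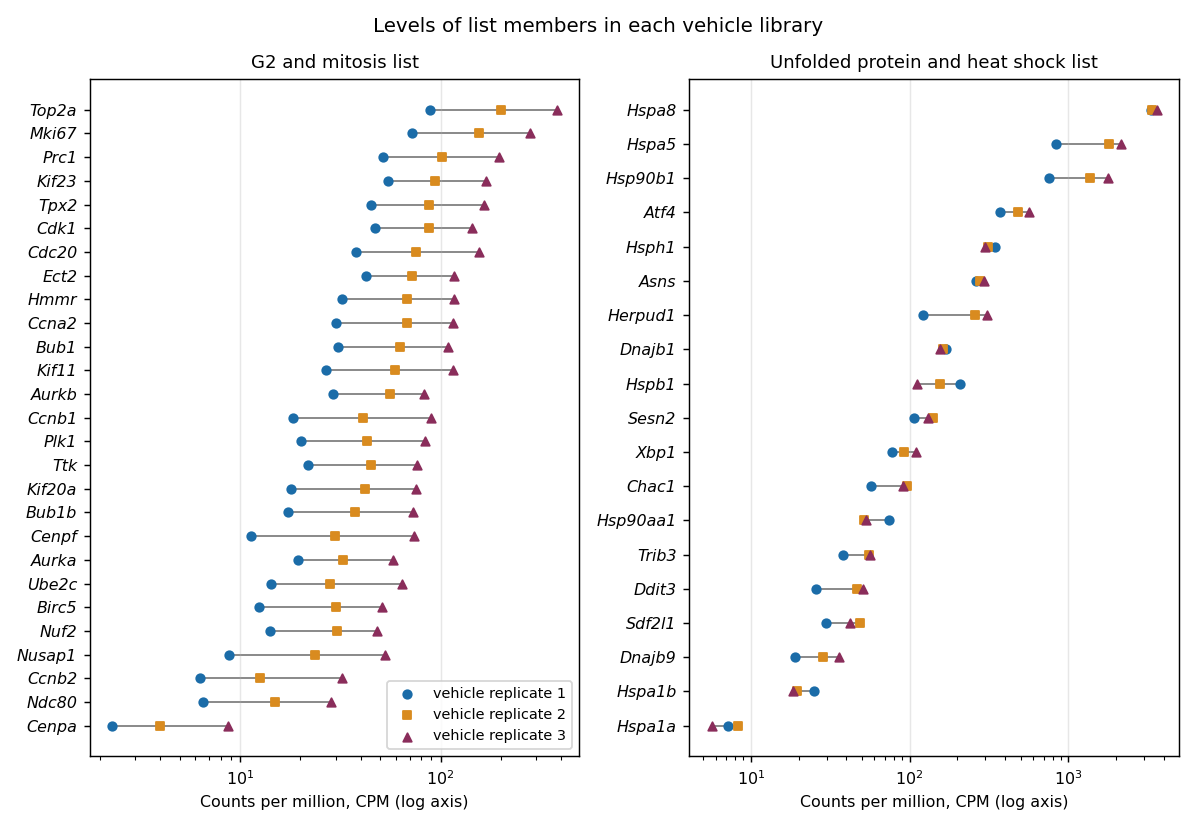
CPM (log axis) in each vehicle library of the 27 G2 and mitosis genes (left) and the 19 unfolded protein and heat shock genes (right), 1 symbol per library. In every row on the left replicate 1 is lowest and replicate 3 highest, and on the right Hspa5, Hsp90b1 and Herpud1 span the widest gaps.

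Chaperones of the endoplasmic reticulum formed another group among genes with many reads. Hspa5 (BiP), the main chaperone there, was at 832, 1800 and 2149 CPM. Hsp90b1 was at 755, 1373 and 1781, and Herpud1, of the degradation pathway, at 122, 259 and 306. In these 3 genes replicate 1 stood apart and replicates 2 and 3 were nearer to each other. They were 3 of the 19 unfolded protein and heat shock genes, and none of the 19 passed 2-fold without replicate 1. Outside the list, Creld2 (41.2, 93.2 and 134 CPM) and Pdia4 (190, 347 and 456 CPM), which also act in folding, had the same order and were picked after their values were seen. The cytosolic side of the list did not follow: Hspa8 differed little, at 3289, 3376 and 3585 CPM, and the small heat shock protein Hspb1 was highest in replicate 1, at 209, 156 and 111. The list's median log2 ratio was 0.38 for replicate 2 to 1, 0.50 for replicate 3 to 1 and 0.03 for replicate 3 to 2.

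Matrix and anchorage genes held differences in both directions. Col17a1, the hemidesmosomal collagen, was at 1180, 2065 and 2455 CPM, the only 1 of 7 hemidesmosome and laminin-332 genes past 2-fold. Lamb3 was at 1060, 1385 and 1624 CPM. Of the matrix metalloproteases, Mmp10 was at 13.0, 37.1 and 78.9 CPM, Mmp3 at 10.1, 23.5 and 30.7 and Mmp13 at 15.3, 21.0 and 31.8, each lowest in replicate 1. Thbs1, a matrix glycoprotein, went the other way, at 87.2, 79.0 and 32.6 CPM, with replicate 3 below both others. With Ptger4, a prostaglandin E2 receptor at 8.94, 7.07 and 2.94 CPM, it was 1 of 2 genes in which replicate 3 lay 2-fold below both other libraries. Igfbp3, a secreted binding protein of insulin-like growth factors, was at 142, 227 and 300 CPM.

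Among the 192, genes highest in replicate 1 were fewer and of mixed kind. Ftl1, the ferritin light chain, was at 7003, 5104 and 3377 CPM and was the gene with the most reads among the 192. Padi1, which citrullinates proteins, was at 299, 191 and 124 CPM, Adm, the peptide adrenomedullin, at 349, 258 and 168, and the EGF family ligand Epgn at 36.9, 23.1 and 14.96. In each of these 4 replicate 3 was lowest. Of 15 NRF2 target genes at a mean of 5 CPM or more, 8 had replicate 1 highest and replicate 3 lowest. That order held for 23.6% of all 8539 genes. The list's median log2 ratio of replicate 3 to replicate 1 was -0.20, and 3 of the 15 were higher in replicate 3. Nqo1 was at 672, 475 and 342 CPM and Akr1b8 at 2131, 1598 and 1154, both just under 2-fold. The target Slc7a11, a cystine transporter, had the reverse order at 12.0, 14.97 and 26.1 CPM and was the 1 of 15 past 2-fold. Grin3b and Bspry were the 2 genes in which replicate 1 lay 2-fold above both others, and 47 genes had replicate 1 that far below both. No gene had replicate 2 that far outside.

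The 192 held 2 of 146 surface receptors (1.37%) and 2 of 213 transcription factors (0.939%) at a mean of 5 CPM or more, beside 2.25% of all genes, and with counts this small nothing is read from the shares. The receptors were Ptger4 and Il1rl1, the interleukin-33 receptor, at 41.5, 58.6 and 88.2 CPM. The transcription factors were Foxm1 and the AP-1 repressor Jdp2, at 12.7, 24.3 and 30.3 CPM. Among cytokines, Cxcl10, an interferon-induced chemokine, was at 6.64, 16.1 and 28.6 CPM and Ccl2 at 4.78, 8.40 and 12.3, each the only gene of its list past 2-fold. The share of differing genes was 3.37% at 5 to 20 CPM, 2.36% at 20 to 100 CPM and 0.992% at 100 CPM or more. Of the 192 genes, 143 were in none of the 39 lists.

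Promoters of the cell cycle and chaperone genes are shown because members of these lists differed between libraries. Past 2-fold were all 27 G2 and mitosis, 8 of 26 S phase and 3 of 19 unfolded protein and heat shock genes. The sequences are RefSeq promoters of the GRCr8 build, from 250 bases before to 50 bases after the start site, whereas the reads were mapped to rn6. The G2 and mitosis promoters have the CCAAT box (CCAAT) and the CHR element (TTTGAA) in capitals, on either strand:
Cenpf: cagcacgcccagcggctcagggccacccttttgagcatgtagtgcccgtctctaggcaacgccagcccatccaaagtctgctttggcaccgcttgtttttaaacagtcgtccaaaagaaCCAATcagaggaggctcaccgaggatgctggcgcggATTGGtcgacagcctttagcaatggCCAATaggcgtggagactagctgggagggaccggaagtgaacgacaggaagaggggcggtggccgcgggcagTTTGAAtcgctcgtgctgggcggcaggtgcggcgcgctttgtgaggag
Nusap1: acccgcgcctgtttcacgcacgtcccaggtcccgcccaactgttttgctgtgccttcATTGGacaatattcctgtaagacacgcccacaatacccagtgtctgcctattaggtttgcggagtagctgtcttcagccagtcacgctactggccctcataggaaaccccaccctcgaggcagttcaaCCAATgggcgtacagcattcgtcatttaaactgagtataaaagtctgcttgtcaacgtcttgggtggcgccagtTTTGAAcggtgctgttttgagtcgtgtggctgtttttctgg
The Cenpf window is chr13:103760837-103761136 on the minus strand and the Nusap1 window chr3:127057045-127057344 on the plus strand. The S phase promoter has the E2F letters (TTTCCCGC or TTTGGCGC) in capitals, at chr3:160184670-160184969 on the plus strand:
Gins1: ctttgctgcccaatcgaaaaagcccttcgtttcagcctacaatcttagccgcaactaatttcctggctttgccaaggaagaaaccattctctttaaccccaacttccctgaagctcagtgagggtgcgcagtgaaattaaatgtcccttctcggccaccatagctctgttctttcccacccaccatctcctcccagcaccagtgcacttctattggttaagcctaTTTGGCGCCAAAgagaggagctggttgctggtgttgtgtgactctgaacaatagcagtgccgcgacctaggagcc
The chaperone promoter has the endoplasmic reticulum stress element (CCAAT, 9 bases of any kind, then CCACG) in capitals, at chr3:38452766-38453065 on the plus strand:
Hspa5: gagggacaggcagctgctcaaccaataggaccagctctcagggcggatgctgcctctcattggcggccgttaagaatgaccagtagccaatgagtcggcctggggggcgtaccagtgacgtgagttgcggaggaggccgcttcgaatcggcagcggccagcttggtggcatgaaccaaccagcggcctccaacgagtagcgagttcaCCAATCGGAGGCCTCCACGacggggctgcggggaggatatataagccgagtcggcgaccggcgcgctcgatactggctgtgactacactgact
These 4 were taken for the largest ratio between libraries among list members that hold the letters, a rule set after the matches were seen, so they are examples and not typical promoters. Gins1, of the replication helicase, was at 11.1, 18.1 and 27.0 CPM.

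The letters were then counted in both directions in every list member with a single start site in the table. Of 23 G2 and mitosis promoters, 18 held CCAAT, 18 held TTTGAA, 0 held the E2F letters and 1 held the endoplasmic reticulum stress element. Of 20 S phase promoters, 13 held CCAAT, 1 held TTTGAA, 9 held the E2F letters and 0 held the stress element. Of 17 unfolded protein and heat shock promoters, 12 held CCAAT, 0 held TTTGAA, 1 held the E2F letters and 3 held the stress element, which itself contains CCAAT. Among 6390 promoters of the 8539 genes the shares were 38.2% for CCAAT, 11.2% for TTTGAA, 3.38% for the E2F letters and 0.219% for the stress element, and among all 33469 promoters 37.5%, 18.3%, 1.45% and 0.0657%. A match describes these letters in this window and is not a bound site, and the lists and letters were picked after the library differences were known.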

How the data were processed

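Gene counts of the 3 vehicle libraries were taken from the deposited gene count tables, in which reads had been mapped with STAR 2.7.5b to rn6, per the submitters' processing notes. The sources used here give no annotation for the counts. The unstranded column was used, since the 2 strand columns held near-equal totals (49.9% to 50.0% on the first strand), so a gene and an overlapping gene on the other strand cannot be told apart. Reads outside 1 gene (4 summary lines) were left out of totals, as were the PMA libraries and the deposited normalized table. They held 16.6% to 17.3% of reads without a gene, 5.95% to 6.35% mapping to several places, 5.17% to 6.26% unmapped and 0.590% to 0.634% ambiguous.

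CPM were computed in R 4.3.3 with edgeR 4.0.16 TMM factors from these 3 libraries alone (1.007, 0.992 and 1.001), so they differ from CPM scaled over all 9. Spread was estimated by edgeR with an intercept only. A gene counts as differing at 2-fold between highest and lowest CPM plus 0.5, among genes at a mean of 5 CPM (73.2 to 89.9 reads). Ratio intervals are exact Clopper-Pearson intervals at 95% and, like the limit of 3 counts, cover counting error only. The counting of differing genes was checked on simulated data with known changes, which is no test of the differences found. The libraries differed by more than counting noise: the chi-square of counts per degree of freedom between pairs was 12.0 to 33.0.

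Named genes are, by rule, the 25 with the most reads, the basal markers, detected keratins, the leading 4 of each receptor list and transcription factor family, up to 8 per library that stood furthest apart, and up to 4 of each list by ratio. The text shows a selection of these, and other genes named are members of the lists, except Creld2, Pdia4, Padi1, Adm and Igfbp3, which were named after their values were seen. Ranking per kilobase was planned, but no transcript lengths were used here, so CPM took its place. The members and lists were chosen with earlier results of these data known. The promoter search was added after the differences between libraries were seen. Alternatives used DESeq2 1.42.0 size factors and dispersions, no scaling, the summed strand columns, other filters, folds and pseudocounts, and each library left out. Some genes are not reported here.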

Additional observations from a re-analysis of the deposited data

How the results depend on the processing

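No paired analysis was possible because there is only 1 group. Under no scaling, DESeq2 size factors, the summed strand columns and each library left out, the means of Krt5, Krt14, Tp63 and Icam1, the detected counts and the keratin sum moved by less than their spread or by under 1.5 times, and at least 24 of the 25 genes with the most reads stayed the same genes. The count of differing genes, 192, depends on the settings: it was 336 with a filter at 1 CPM, 123 at 20 CPM, 516 with no filter, 648 at 1.5-fold and 59 at 3-fold, and 21 to 184 with a library left out. With a library left out, the median log2 ratio was 0.91 to 1.95 for G2 and mitosis (0.91 without replicate 1, 1.07 without replicate 3), 0.23 to 0.81 for S phase (0.50 without replicate 3), 0.034 to 0.50 for unfolded protein and heat shock and 0.042 to 0.28 for hemidesmosome and laminin-332 (0.36 with all libraries), whose low ends came without replicate 1, and the members at 5 CPM were counted anew over the libraries kept. These 4 of the 39 lists were chosen after their values were seen. The estimate of variation ranged from 9.0% to 15.8% with a library left out and was 10.2% with DESeq2 dispersions. Of 117 alternative values for these results 104 were little changed and 13 moved, of 696 for single genes and promoter counts 7 moved, among them the ratios of Ddit3, Grin3b, Hsd17b7 and Tm6sf1 under the summed strand columns. Under those columns, the log2 ratio of replicate 3 to replicate 1 changed sign near 0 in Tm6sf1 (from -0.20 to 0.08) and Mapk8ip1 (from 0.02 to -0.01), both well under 2-fold, and no other value changed sign. Reading the CHR element as TTTGAA or TTCGAA, an alternative chosen after seeing the data, gave 18 G2 and mitosis, 3 S phase and 1 unfolded protein promoter, and 19.7% of all promoters, and keeping symbols with several start sites gave 14 CCAAT and 10 E2F matches in 21 S phase promoters. Rankings per kilobase were not run, for want of transcript lengths. At the 5 CPM limit a gene has under 90 reads a library, so 2-fold ratios of such genes carry wide counting intervals.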

Other observations

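Part of the squamous differentiation genes were detected in the vehicle cultures. Of 20 squamous and cornified genes in the files 13 were detected, beside 54.2% of all genes, and nothing is read from that share. They were led by the plakin Ppl (858, 706 and 641 CPM), the crosslinking enzyme Tgm1 (784, 670 and 644 CPM) and Lypd3 (383 ± 8.60 CPM). Of the list, 0 of 9 with enough reads differed 2-fold. Sprr1a, a cornified envelope precursor, was at 55.6, 68.3 and 89.9 CPM. Of 11 desmosome genes 10 were detected, with Pkp1 (967 ± 73.4) and Jup (667 ± 29.0) among those with the most reads. The chemokine Cxcl1 was at 401, 442 and 629 CPM, highest in replicate 3. Cdkn2a, an inhibitor that accumulates with culture age in many cell types, was at 71.4, 78.9 and 78.5 CPM.

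Of 2 Y-linked genes in the files, Eif2s3y was at 109, 99.1 and 98.6 CPM and Ddx3y had no read. Eif2s3y has a close X-linked copy, Eif2s3x, at 381, 351 and 353 CPM, and how reads of the copies were divided was not tested, so these values give no sex of the cells.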
